A study of Mus musculus with 26 samples.

Results

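The 10 genes described here write 2 repressive histone marks and were taken from the 54589 genes listed over 3 RNA-seq tables from mouse cells and testis. They were chosen by name, with earlier results of these data known. One set of 5 encodes Polycomb repressive complex 2 (PRC2), which methylates lysine 27 of histone H3 (H3K27): the alternative catalytic subunits Ezh1 and Ezh2, the core subunits Eed and Suz12, and the accessory subunit Jarid2. The remaining 5 encode enzymes that methylate lysine 9 of histone H3 (H3K9): Ehmt1 (also called GLP), Ehmt2 (G9a), Setdb1, Suv39h1 and Suv39h2. All 10 were present in all 3 tables and passed the filter on low values in each of them.

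PRC2 needs Eed and Suz12 to support either catalytic subunit, and Ezh2 is generally the form of dividing cells while Ezh1 is better known from resting cells. Ehmt1 and Ehmt2 work as a pair that writes dimethylated H3K9 in gene-rich chromatin, Setdb1 writes trimethylated H3K9 over retroelements, and Suv39h1 and Suv39h2 write it over heterochromatin near centromeres. Primordial germ cells, the embryonic founders of eggs and sperm, are known to lose dimethylated H3K9 and to gain trimethylated H3K27 soon after they form, and transcript levels of these writers are what the tables can show.

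The 26 libraries came from 3 experiments on Tex10. In the dTAG13 experiment, epiblast-like cells (EpiLCs, a culture model of the early epiblast, untreated) gave rise to primordial germ cell-like cells (PGCLCs), which were grown in the solvent DMSO or in 500 nM dTAG13 and collected on day 2 or day 4. dTAG13 is a small molecule that sends proteins carrying a matching tag for degradation and was used to deplete Tex10; the 5 groups had 2 libraries each. The overexpression experiment followed 1 empty-vector line and 2 clones overexpressing Tex10, all untreated, from EpiLCs through days 2, 4 and 6, with 1 library a line and stage. In the testis experiment, 2 wildtype testes and 2 from Tex10 conditional knockout (cKO) mice gave 1 library each. Cultured cells were of strain 129Sv/J and testes of strain C57BL/6N. The control arm of the overexpression experiment is a single line, the Cre driver of the conditional knockout, the age of the mice and the tagged allele are not given in the sources used here, and the step from EpiLC to PGCLC in the dTAG13 experiment also goes from no solvent to DMSO. No source says that numbered replicates came from separate cultures, so p-values from the cultures measure only the spread between these libraries.

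Libraries held 5055362 to 8564563 reads, and the 10 genes had between 27 and 7639 reads in a library. Depth differed by treatment in the dTAG13 experiment. Treated libraries held 5055362 to 5854980 reads, with 26078 to 28809 genes above 0. EpiLC and DMSO libraries held 6119730 to 8564563 reads. They had 23453 to 23999 genes above 0, except day 4 DMSO replicate 2 with 28687. The part of depth and of genes detected in the dTAG13 differences was not tested. Values are TMM-scaled CPM, read counts scaled to library size with the TMM correction, fold changes are differences of log2(value + 1) with their standard error (SE), and p-values, computed in limma, were adjusted by Benjamini and Hochberg's procedure across every tested gene of a comparison. A gene is said to have risen, fallen or changed at an adjusted p under 0.05. The day 4 DMSO pair stood apart from the other pairs: its chi-square per gene between the 2 libraries was 13.57, against 1.81 to 7.48 in all other groups of 2, so results that rest on that group are given with each of its libraries left out where this changes a call. Tex10 transcript, read first as a check of the labels, was 145 to 213 in the empty-vector line, against 330 to 654 in the clones (log2 difference 1.47, adjusted p 2.14e-11, limma, higher in 8 of 8 clone libraries). That fit counted the stages of a line as separate libraries, so its p-value does not measure the spread between lines. In testis Tex10 transcript was 79.1 and 44.1 in wildtype and 29.8 and 27.3 in cKO (−1.02, adjusted p 0.00318, limma). dTAG13 acts on protein, so its transcript checks little there: log2 differences were −0.14 (adjusted p 0.322, limma) at day 2 and −0.51 (adjusted p 0.000576) at day 4. PGCLC identity was read from 8 germ cell genes fixed as a list (Prdm1, Prdm14, Tfap2c, Dppa3, Nanos3, Kit, Dnd1, Itgb3), whose summed level was 70.8 to 73.1 in EpiLCs, 254 to 269 at day 2 with DMSO and 295 to 327 at day 4 with DMSO, and 41.9 to 48.8 in EpiLCs against 275 to 384 at later stages of the overexpression experiment.

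Promoter windows of 4 of the genes are shown. The catalytic subunits Ezh2 and Ezh1 were taken because they parted in the results below. Suz12 and Suv39h1 are the other members whose windows hold the searched word. Windows run from 250 bases before to 50 after the start, 5′ to 3′ on the strand of the gene, from RefSeq on GRCm38.p6. Capitals mark an E2F-like word, one of TTTCCCGC, TTTCGCGC, TTTGCCGC or TTTGGCGC on either strand. E2F is the factor family of the cell division cycle, and the words can overlap one another.
Ezh2, chr6:47594981-47595280, minus strand: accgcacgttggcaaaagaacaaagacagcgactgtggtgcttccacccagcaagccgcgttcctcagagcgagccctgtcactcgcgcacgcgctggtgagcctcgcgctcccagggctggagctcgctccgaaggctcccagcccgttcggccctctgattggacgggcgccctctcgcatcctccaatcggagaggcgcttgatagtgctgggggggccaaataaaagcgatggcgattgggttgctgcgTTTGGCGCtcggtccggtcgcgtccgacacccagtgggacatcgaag
Ezh1, chr11:101226414-101226713, minus strand: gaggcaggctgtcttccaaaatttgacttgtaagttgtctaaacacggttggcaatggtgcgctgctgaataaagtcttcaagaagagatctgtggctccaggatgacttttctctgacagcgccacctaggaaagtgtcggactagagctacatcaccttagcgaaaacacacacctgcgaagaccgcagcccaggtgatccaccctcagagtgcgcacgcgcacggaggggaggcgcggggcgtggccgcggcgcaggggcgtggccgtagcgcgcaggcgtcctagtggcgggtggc
Suz12, chr11:79992856-79993155, plus strand: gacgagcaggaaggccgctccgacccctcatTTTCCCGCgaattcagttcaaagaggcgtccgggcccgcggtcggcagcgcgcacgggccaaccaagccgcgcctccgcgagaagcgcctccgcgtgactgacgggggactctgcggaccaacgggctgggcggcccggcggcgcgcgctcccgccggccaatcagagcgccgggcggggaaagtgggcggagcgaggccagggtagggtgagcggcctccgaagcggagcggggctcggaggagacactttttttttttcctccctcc
Suv39h1, chrX:8074312-8074611, minus strand: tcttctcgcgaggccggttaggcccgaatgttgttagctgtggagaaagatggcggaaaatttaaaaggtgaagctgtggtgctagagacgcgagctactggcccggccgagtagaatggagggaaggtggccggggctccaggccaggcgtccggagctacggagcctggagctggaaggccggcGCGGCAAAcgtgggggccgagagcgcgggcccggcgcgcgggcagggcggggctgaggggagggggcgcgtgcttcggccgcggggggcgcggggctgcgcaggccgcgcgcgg
RefSeq gave 13 windows for the 10 genes, of which these 3 with capitals held a word, against 2.26% of 32851 promoter windows of the same length (744 windows). In Ezh2 the word starts 3 bases from the transcription start, in Suz12 at −219 and in Suv39h1, on the opposite strand, at −64. A match is a description of letters, and the Ezh1 window and the other 9 windows say only that these words are not in them.

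On the mouse genome (GRCm38, GENCODE annotation) Ezh1 and Suz12 lie on chromosome 11 (101191115 to 101226463, minus strand, and 79993106 to 80034123, plus strand), Ezh2 on chromosome 6 (47530139 to 47595341, minus strand), Eed on chromosome 7 (89954654 to 89980983, minus strand) and Jarid2 on chromosome 13 (44729474 to 44921643, plus strand). Ehmt1 and Suv39h2 lie on chromosome 2 (24789928 to 24919614 and 3455815 to 3475031, both minus strand), Ehmt2 on chromosome 17 (34898469 to 34914052, plus strand), Setdb1 on chromosome 3 (95323525 to 95357202, minus strand) and Suv39h1 on chromosome X (8061171 to 8074760, minus strand). Setdb1 overlaps the protein-coding gene Cers2 and Suv39h2 overlaps Dclre1c, each on the opposite strand, and whether the authors counted by strand is not given in the sources used here, so values of these members are uncertain to that extent.

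Divided by the length of merged exons, EpiLCs carried far more Jarid2 and Suz12 than the catalytic subunits. In untreated EpiLCs the level per kb was 86.1 for Jarid2 and 58.7 for Suz12, then 20.2 for Setdb1, 17.4 for Ezh2, 17.0 for Ehmt1, 15.4 for Suv39h2, 14.8 for Ehmt2, 12.4 for Eed, 7.28 for Suv39h1 and 4.12 for Ezh1. Neighbours in this order had libraries that did not overlap, except Ezh2 with Ehmt1 and Suv39h2 with Ehmt2. Wildtype testis had another order on the same per-kb scale: 37.3 for Ehmt2, 16.3 for Suv39h2, 9.86 for Suz12, 8.27 for Setdb1, 5.04 for Eed, 4.1 for Jarid2, 4.05 for Ezh1, 2.61 for Suv39h1, 2.57 for Ezh2 and 0.72 for Ehmt1, with overlap between Jarid2 and Ezh1 and between Suv39h1 and Ezh2. Tables were normalized separately, so the orders can be set side by side but levels are not compared across them.

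From EpiLC to PGCLC in DMSO cells, Eed rose while Jarid2 and later Suv39h2 fell, and the remaining 7 genes did not pass the test at either net step. At EpiLC to day 2, 2 of the 10 genes changed, where 26.2% of all 16605 tested genes did (11.5% higher, 14.7% lower). At EpiLC to day 4 it was 3 of the 10 genes, against 34.9% of all genes (16.8% higher, 18.1% lower). Both are near the background. Ezh2, the catalytic subunit with the higher transcript level in these cells, stayed between 101 and 127 in all 6 untreated and DMSO libraries.

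**Figure D1:**
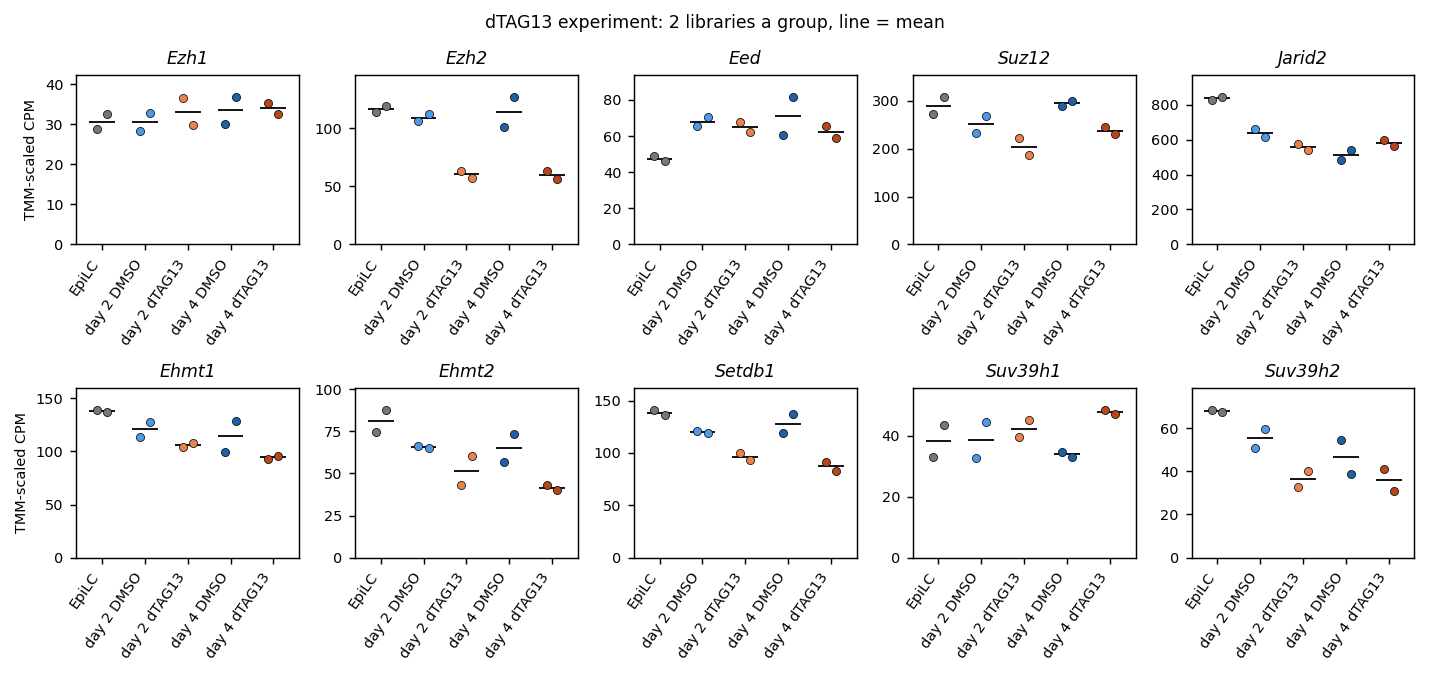
Level of each gene (vertical axis, TMM-scaled CPM from 0) in the 10 libraries of the dTAG13 experiment, by group; points are libraries and lines are means of 2. Ezh2 lies between 55.9 and 63.4 in the 4 dTAG13 libraries and between 101 and 127 in the other 6, while Jarid2 is highest in EpiLCs and Eed lowest there.

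Eed, which binds the H3K27 mark and joins the core of PRC2, was 48.7 and 46.0 in EpiLCs, 65.5 and 70.3 at day 2 and 60.8 and 81.8 at day 4 of DMSO culture. All 4 PGCLC libraries were above both EpiLC libraries. The rise was 0.51 ± 0.13 on the log2 scale to day 2 (adjusted p 0.00681, limma) and 0.57 ± 0.13 to day 4 (adjusted p 0.00229), n = 2 a group.

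Jarid2, which helps to bring PRC2 to its sites, was 826 and 846 in EpiLCs, 658 and 614 at day 2 and 481 and 540 at day 4. The 3 stages did not overlap, each lower than the one before. It fell by 0.39 ± 0.10 to day 2 (adjusted p 0.00568, limma) and by 0.71 ± 0.10 to day 4 (adjusted p 9.01e-06), while the step from day 2 to day 4 itself, −0.32, had an adjusted p of 0.07. At that step 0 of the 10 genes passed in limma, against 5.52% of all genes (2.44% higher, 3.08% lower, with 3042 genes at an unadjusted p under 0.05), and Jarid2 was the 1 member that edgeR, DESeq2 and median-ratio scaling called there.

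Suv39h2, one of the heterochromatin enzymes, was 68.4 and 67.5 in EpiLCs, 50.7 and 59.7 at day 2 and 54.3 and 38.8 at day 4. Every PGCLC library was below both EpiLC libraries. The net difference to day 4 was −0.55 ± 0.16 (adjusted p 0.0111, limma) and that to day 2 was −0.30 (adjusted p 0.19). The day 4 call was lost without the filter on low values (adjusted p 0.0878) and without the variance trend (0.0764). The dimethyl H3K9 pair gave values in the same direction that did not pass: to day 4, Ehmt1 went from 139 and 137 to 99.7 and 129 (−0.28, adjusted p 0.0722, limma, called under median-ratio scaling with −0.31 and 0.044) and Ehmt2 from 74.8 and 87.7 to 57.0 and 73.5 (−0.32, adjusted p 0.106).

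From EpiLC to day 2, 0 of the 10 genes had an FDR under 0.05 in the authors' deposited table. The 12 proliferation genes of a fixed list summed to 3790 to 4100 in EpiLCs and 2750 to 2790 at day 2, with 12 of 12 called lower, and their part in the member values was not tested. Of these stage calls, Jarid2 to day 4 was kept with each of the 4 libraries left out (adjusted p up to 0.000488, limma), and the others were lost with at least 1 left out. Without day 2 DMSO replicate 2 or without EpiLC replicate 2, Eed (adjusted p 0.0646 and 0.0683, limma) and Jarid2 (0.0738 and 0.0556) were not called at day 2. Without day 4 DMSO replicate 2, Eed (log2 0.35) and Suv39h2 (−0.32) were lost to day 4, while Ehmt1 (−0.47) and Ehmt2 (−0.50) were called lower. Jarid2 was then also called from day 2 to day 4 (−0.40). Without day 4 DMSO replicate 1, the differences to day 4 were −0.095 for Ehmt1 and −0.139 for Ehmt2. Suv39h2 to day 4 was also lost without either EpiLC library (adjusted p 0.0619 and 0.0576).

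Among 47 other genes of these pathways on fixed lists, 46 were tested in DMSO cells, and 2 rose and 16 fell to day 2, with a median log2 difference of −0.24 against −0.03 for all genes. Of 10 partners and readers of H3K9 methylation, 5 fell, including Uhrf1, which binds methylated H3K9 and hemimethylated DNA (−0.98, adjusted p 2.94e-07, limma). Of 8 H3K9 demethylases, Kdm3b rose (0.43, adjusted p 0.00478) and Kdm4c was among the 2 that fell (−0.82, adjusted p 1.29e-05). Of 19 PRC1 genes, 8 fell and only Pcgf5 rose (0.60, adjusted p 0.00401). To day 4, 7 of the 46 rose and 19 fell, with the PRC2 accessory gene Phf1 (1.25, adjusted p 0.000701, limma) at the top and Kdm4c (−1.10, adjusted p 1.55e-07) and the PRC1 gene Phc1 (−1.03, adjusted p 7.56e-08) at the bottom.

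In the overexpression experiment, where the stage steps were fitted within lines, 4 PRC2 genes rose from EpiLC to day 2 and 5 of 10 genes changed, against 46.3% of all 15255 tested genes (24.1% higher, 22.1% lower). To day 6 it was 7 of 10, against 54.1% (27.6% higher, 26.5% lower): Ezh1, Eed, Suz12 and Jarid2 rose, while the H3K9 genes Ehmt1, Suv39h1 and Suv39h2 fell. Ezh2, Ehmt2 and Setdb1 did not pass over this span. Both member counts are near the background, so it is the direction of each gene, and not the number, that is described. These steps pool the empty-vector line with both clones. Tex10 itself averaged 389 in EpiLCs of the clones and 652 at day 6, against 213 and 145 in the empty-vector line. The part of Tex10 level in the stage steps was not tested.

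**Figure D2:**
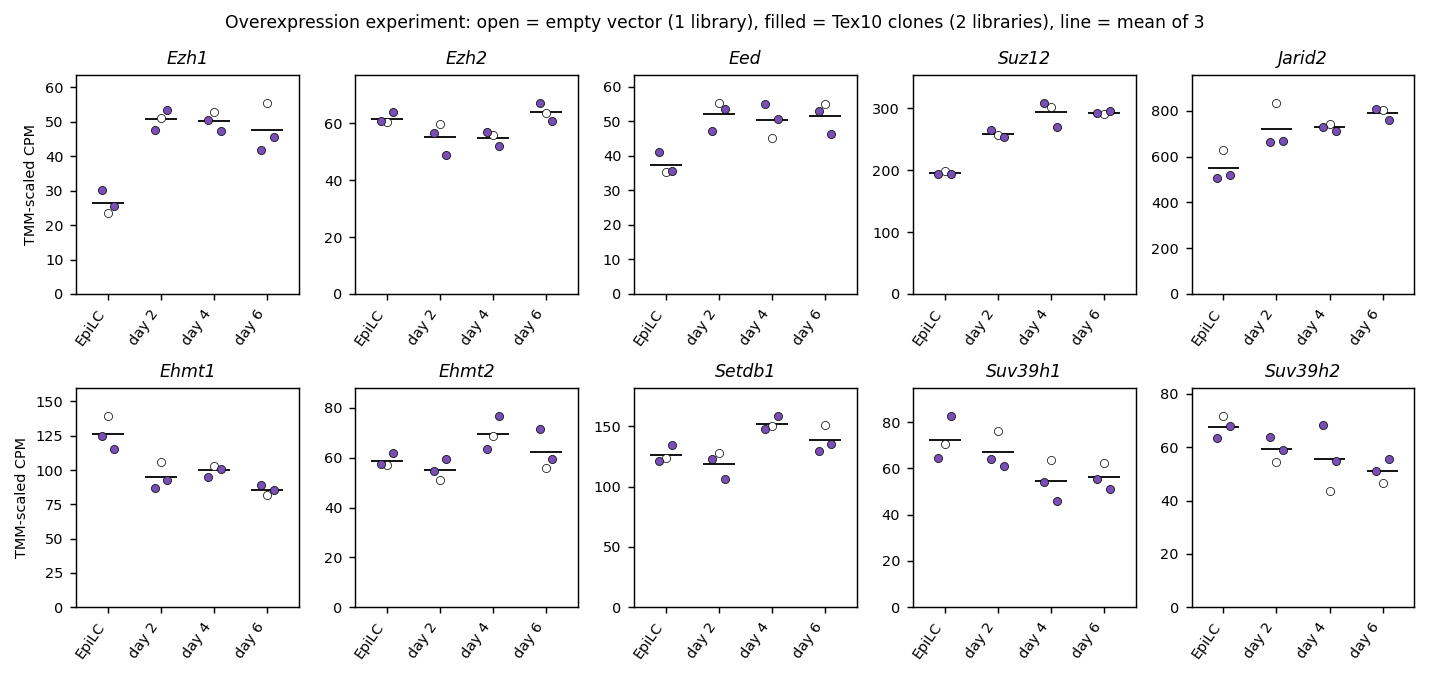
Level of each gene (vertical axis, TMM-scaled CPM from 0) in the 12 libraries of the overexpression experiment by stage; open points are the empty-vector line, filled points the 2 Tex10 clones and lines the mean of 3. Ezh1 is 23.6 to 30.3 in EpiLCs and 41.7 to 55.4 later, and in Jarid2 the empty-vector point stands above both clones in EpiLCs and at day 2.

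Ezh1, the catalytic subunit with the lower level per kb, was 23.6, 30.3 and 25.4 in the EpiLCs of the empty-vector line, clone 1 and clone 2, and 51.1, 47.6 and 53.3 at day 2. It remained at 47.4 to 52.9 at day 4 and 41.7 to 55.4 at day 6, so that no later library overlapped an EpiLC library. The rise was 0.92 ± 0.12 to day 2 (adjusted p 3.33e-07, limma) and 0.82 ± 0.12 to day 6 (adjusted p 1.42e-06). Ezh2 over the same stages was 60.4 to 63.9 in EpiLCs, 48.7 to 59.9 at day 2, 52.1 to 57.0 at day 4 and 60.9 to 67.1 at day 6. Its log2 difference to day 6 was 0.05 ± 0.10 (adjusted p 0.687, limma). The ratio of Ezh2 to Ezh1, from values not divided by length, was accordingly 2.0 to 2.56 in EpiLCs and 0.915 to 1.61 in the 9 later libraries.

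Eed was 35.3, 41.2 and 35.7 in EpiLCs and 45.2 to 55.3 in all later libraries, above every EpiLC library, and rose by 0.47 ± 0.11 to day 2 (adjusted p 0.00113, limma). Suz12, the subunit that holds the PRC2 core together, was 199, 194 and 194 in EpiLCs, 257, 265 and 253 at day 2, and 290, 292 and 295 at day 6. Its stages from EpiLC to day 2 and day 6 were fully apart, with a rise of 0.40 ± 0.07 to day 2 (adjusted p 3.33e-05, limma) and 0.57 ± 0.07 to day 6 (adjusted p 6.32e-08). Jarid2 was 631, 505 and 519 in EpiLCs, 834, 664 and 667 at day 2 and 806, 808 and 762 at day 6, where every later library was above every EpiLC library. It rose by 0.39 ± 0.07 to day 2 (adjusted p 7.32e-05, limma) and by 0.53 ± 0.07 to day 6 (adjusted p 4.94e-07).

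On the H3K9 side, Ehmt1 was 139, 125 and 115 in EpiLCs, 106, 87.2 and 92.6 at day 2 and 81.5, 88.9 and 85.6 at day 6, each line below its own EpiLC library. It fell by 0.40 ± 0.09 to day 2 (adjusted p 0.000455, limma) and by 0.56 ± 0.09 to day 6 (adjusted p 5.04e-06). Suv39h2 was 71.5, 63.5 and 68.0 in EpiLCs and 46.4, 51.1 and 55.6 at day 6, without overlap (−0.40 ± 0.12, adjusted p 0.00391, limma). Suv39h1 was 70.3, 64.3 and 82.4 in EpiLCs and 62.3, 55.2 and 51.1 at day 6 (−0.36 ± 0.11, adjusted p 0.00741). Suv39h1 lies on the X, whose 569 tested genes had a median difference of −0.17 against 0.02 for autosomes, and without clone 2 it was not called (−0.19, adjusted p 0.216). Whether the X-wide shift has a part in the Suv39h1 value was not tested.

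Between day 2 and day 4 of this experiment, Setdb1 and Ehmt2 rose and Suv39h1 fell, 3 of 10 genes against 23% of all genes (11.1% higher, 11.9% lower). Setdb1 went from 128, 123 and 106 to 150, 148 and 158, and no day 4 library overlapped a day 2 library (0.35 ± 0.09, adjusted p 0.00283, limma). Ehmt2 went from 51.1, 54.5 and 59.5 to 68.8, 63.5 and 76.5, likewise apart (0.33 ± 0.10, adjusted p 0.0197). Suv39h1 stages overlapped, with 76.3, 64.2 and 60.9 against 63.5, 54.3 and 46.1 (−0.30, adjusted p 0.0494), and the call was kept in 0 of 7 other settings, edgeR and DESeq2 among them (adjusted p 0.051 to 0.164). Mesoderm and endoderm genes summed to 10.9 to 19.8 at day 2 and 32.7 to 58.5 at day 4, with 5 of 5 tested called higher (median 1.13), and their part was not tested. Without clone 2 none of the 3 was called (adjusted p 0.146 for Ehmt2, 0.15 for Setdb1 and 0.219 for Suv39h1, limma), and without clone 1 only Setdb1 was, with Ehmt2 at 0.0527 and Suv39h1 at 0.172. From day 4 to day 6, 0 of the 10 genes passed in limma, edgeR or DESeq2, against 6.88% of all genes (3.49% higher, 3.38% lower, with 3145 genes at an unadjusted p under 0.05).

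Of the 46 other pathway genes tested here, 20 rose and 13 fell from EpiLC to day 6, with a median of 0.15 against 0.01 for all genes. In the PRC2 accessory list 6 of 8 rose, led by Phf19, a Polycomb-like subunit (1.43, adjusted p 1.43e-07, limma), and 1 fell. Of the 7 H3K9 demethylases tested, 5 rose, led by Kdm4b (1.37, adjusted p 1.47e-10), and 2 fell. The heterochromatin proteins Cbx1 (−1.17, adjusted p 1.47e-14) and Cbx5 (−0.84, adjusted p 1.2e-11), which bind methylated H3K9, were among 5 of 10 partners and readers that fell, while 2 rose. Ezhip, an inhibitor of PRC2, fell to day 2 (−1.15, adjusted p 4.72e-05) and then rose to day 4 (1.33, adjusted p 2.52e-05) and day 6 (0.90, adjusted p 0.00735). The same 12 proliferation genes summed to 3570 to 3700 in EpiLCs and 3050 to 3330 later, with 9 called lower and 2 higher to day 6, and their part in these changes was not tested.

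Set side by side, the stage steps of the 2 culture experiments shared some members and parted at others. From EpiLC to day 2, Eed rose in both (0.51 and 0.47). Jarid2 fell in DMSO cells (−0.39) and rose over the 3 lines of the overexpression experiment (0.39), in each case without overlap between stages, and Suz12 differed likewise (−0.21, adjusted p 0.173, against 0.40, adjusted p 3.33e-05, limma). Ezh1 was 28.3 and 32.8 at day 2 against 28.8 and 32.5 in EpiLCs of the DMSO arm (−0.0034, adjusted p 0.99), against its rise of 0.92 over those 3 lines. The empty-vector line alone went the same way from EpiLC to day 2, from 23.6 to 51.1 in Ezh1, from 631 to 834 in Jarid2 and from 199 to 257 in Suz12. The tables were normalized separately and their libraries were made with different kits, so the difference between experiments was not tested, and kit, cell line and solvent cannot be told apart.

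**Figure D3:**
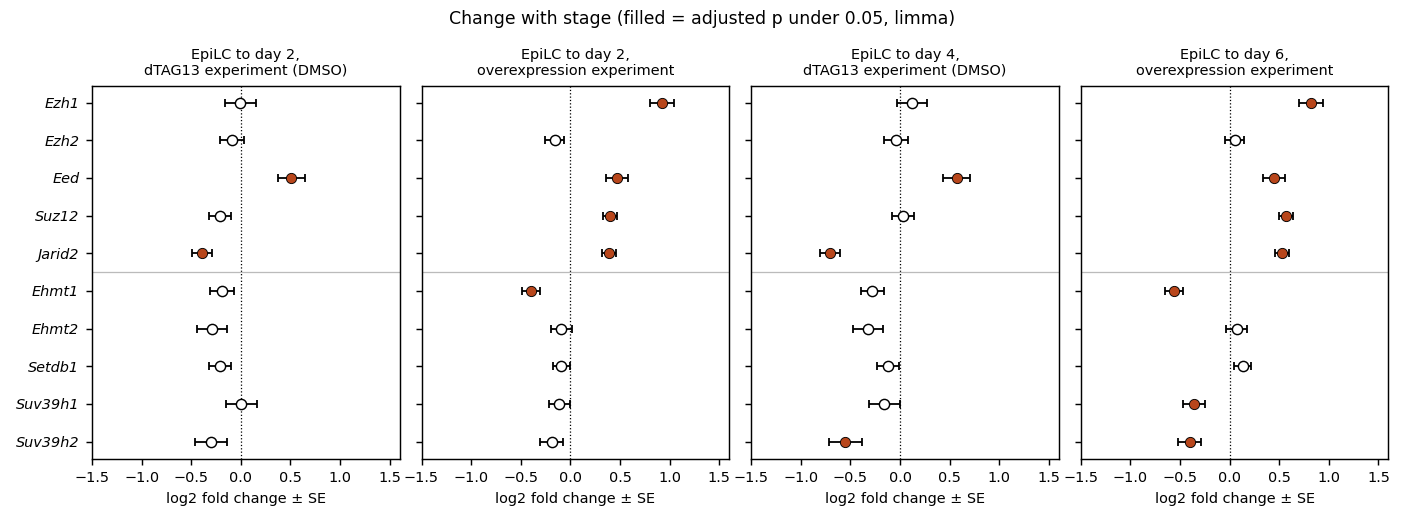
Log2 fold change with SE (horizontal axis) of the 10 genes from EpiLC to later stages in the DMSO arm of the dTAG13 experiment and in the overexpression experiment; filled points have an adjusted p under 0.05 in limma, and a grey line separates PRC2 genes from H3K9 genes. Jarid2 is at −0.39 and −0.71 in DMSO cells and at 0.39 and 0.53 over the empty-vector line and both clones, whereas Eed is at 0.45 to 0.57 in all 4.

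Under dTAG13, Ezh2 was lower at both days, at 0.556 times its DMSO level at day 2 and 0.531 times at day 4, while Ezh1 did not pass the test at either. At day 2, Suv39h2, Setdb1 and Suz12 also fell and none of the 10 genes rose, so 4 of 10 changed against 33.6% of all genes (13.7% higher, 19.9% lower). At day 4, Ezh2, Ehmt2, Setdb1 and Suz12 fell and Suv39h1 rose, 5 of 10 against 41.8% of all genes (15.8% higher, 26% lower). In bulk RNA, fewer cells of a type and less RNA per cell cannot be told apart. The median over all tested genes was itself −0.09 at day 2 and −0.13 at day 4, and median-ratio scaling moved the latter to −0.03; under that scaling Suz12 was not called at either day (adjusted p 0.152 and 0.154, limma) and Setdb1 was not called at day 2 (0.115), while Jarid2 was called higher at day 4 (0.30, 0.0168).

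**Figure D4:**
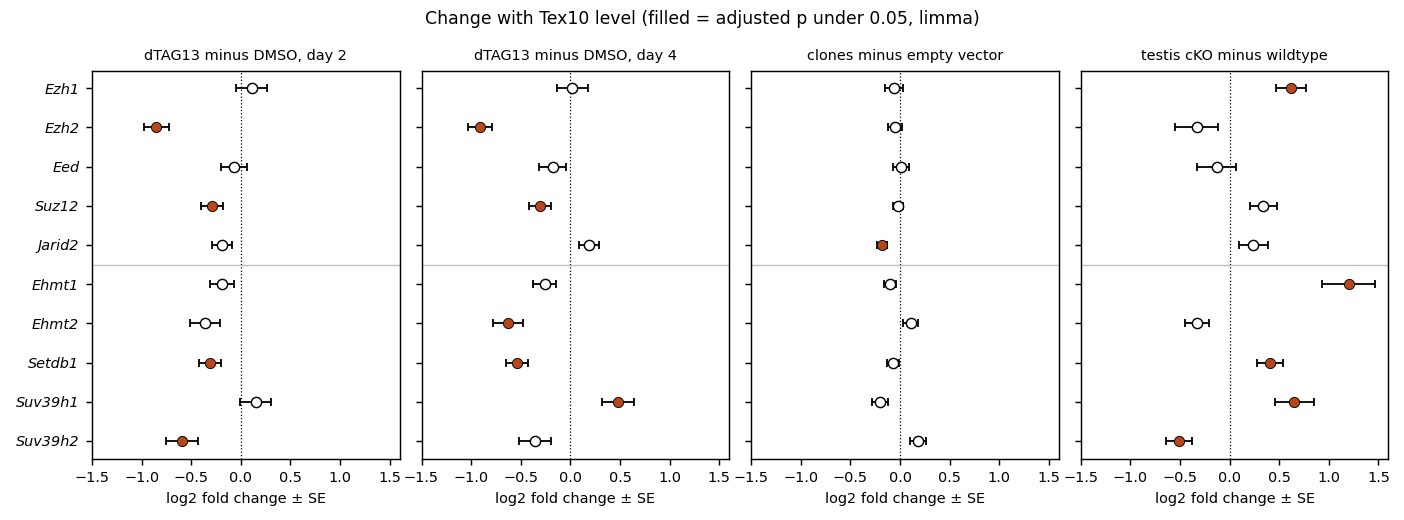
Log2 fold change with SE (horizontal axis) of the 10 genes with dTAG13 at day 2 and day 4, in Tex10 clones against empty vector and in cKO testis; filled points have an adjusted p under 0.05 in limma. Ezh2 is at −0.85 and −0.91 with dTAG13 and at −0.05 in the clones, and the clone values of all 10 genes lie between −0.20 and 0.18.

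Ezh2 was 106 and 112 with DMSO and 63.1 and 57.3 with dTAG13 at day 2, and 101 and 127 against 63.4 and 55.9 at day 4. Treated and control libraries were far apart at both days, and the treated ones were also below the EpiLC libraries. The log2 difference was −0.85 ± 0.12 at day 2 (adjusted p 1.56e-05, limma) and −0.91 ± 0.12 at day 4 (adjusted p 3.35e-06), and it stayed called under all 12 alternative settings at each day, with adjusted p up to 0.00474. In the authors' deposited table it was also the 1 member with an FDR under 0.05 at each day, with log2 fold changes of −0.86 and −0.93. Ezh1 was 36.5 and 29.7 with dTAG13 at day 2 and 35.3 and 32.6 at day 4, overlapping its DMSO values of 28.3 and 32.8 and of 30.1 and 36.9 (0.11 and 0.02, adjusted p 0.631 and 0.919). The Ezh2 to Ezh1 ratio was thus 1.72 to 1.93 in the 4 treated libraries and 3.34 to 3.96 in the other 6.

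Medians of neighbouring genes and of proliferation genes were also negative under dTAG13. On chromosome 6, where Ezh2 lies, the median over 817 tested genes was −0.34 at day 2, against −0.07 for other autosomes, and 72.7% of them were lower. At day 4 the medians were −0.24 and −0.12. The 20 tested genes nearest to Ezh2 had medians of −0.36 and −0.40, with 16 and 14 lower. The proliferation genes summed to 2750 to 2790 with DMSO and 1790 to 1810 with dTAG13 at day 2, with 10 of 12 called lower (median −0.62), and to 2540 to 2800 against 1620 to 1690 at day 4, with 12 of 12 lower (median −0.83). None of the 12 was at 0, and the part of either measure in the Ezh2 value was not tested.

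Suz12 was 233 and 269 with DMSO and 222 and 187 with dTAG13 at day 2, and 289 and 301 against 245 and 230 at day 4. Treated libraries were below control libraries at both days, though by little at day 2 (−0.29 ± 0.11, adjusted p 0.0447, limma, and −0.31 ± 0.11, adjusted p 0.0275). Leaving out dTAG13 or DMSO replicate 2 ended the call at day 2 (−0.17 and −0.19, adjusted p 0.396 and 0.341), and at day 4 it ended without dTAG13 replicate 1, dTAG13 replicate 2 or DMSO replicate 2 (adjusted p 0.0603, 0.168 and 0.0673). Among the 12 alternatives, the Suz12 call was kept in 4 at day 2 and 3 at day 4, and at both days it was lost in edgeR (adjusted p 0.173 at each) and DESeq2 (0.247 and 0.239). The 20 genes nearest to Suz12 had medians of −0.31 and −0.36, with 15 and 17 lower, and their part was not tested. Eed overlapped at both days, with 67.5 and 62.1 at day 2 and 65.7 and 59.0 at day 4 under dTAG13 (−0.07 and −0.18, adjusted p 0.736 and 0.308). Without day 4 DMSO replicate 1, the day 4 difference of Eed was −0.39 and called. Without day 4 DMSO replicate 2 it was 0.033, in the opposite direction.

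Jarid2 was 575 and 538 with dTAG13 at day 2, below the DMSO values of 658 and 614, and 598 and 563 at day 4, above the DMSO values of 481 and 540. Neither difference passed (−0.19, adjusted p 0.148, and 0.19, adjusted p 0.145, limma), while edgeR (0.31, adjusted p 0.0159) and DESeq2 (0.32, adjusted p 0.00664) called the day 4 difference. The change of the dTAG13 effect from day 2 to day 4, tested as an interaction, was 0.38 ± 0.14 for Jarid2 (adjusted p 0.253). No member passed that test in limma, where 1.25% of all genes did (0.771% higher, 0.482% lower) and 2013 genes had an unadjusted p under 0.05. Without day 4 DMSO replicate 2, however, the Jarid2 interaction was 0.46 (adjusted p 0.0471) and its day 4 difference was 0.27 (adjusted p 0.0265).

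Among H3K9 genes, Ehmt2 was 57.0 and 73.5 with DMSO and 43.4 and 39.9 with dTAG13 at day 4, without overlap (−0.63 ± 0.15, adjusted p 0.00192, limma). At day 2 it was 66.4 and 65.4 against 43.4 and 60.1, also apart but not called (−0.36, adjusted p 0.0675, limma). It was called without dTAG13 replicate 2 (−0.59) and when only the 2 groups compared were fitted (−0.36, adjusted p 0.045, limma). Without dTAG13 replicate 1 the day 2 difference was −0.132. Setdb1 was 121 and 119 with DMSO and 99.6 and 93.1 with dTAG13 at day 2, and 119 and 137 against 91.8 and 83.0 at day 4. Its groups were apart at both days (−0.31 ± 0.11, adjusted p 0.0295, limma, and −0.54 ± 0.11, adjusted p 0.000347). The day 4 calls of Ehmt2 and Setdb1 held under all 12 alternatives, while Setdb1 at day 2 was lost on leaving out any one of its 4 libraries (adjusted p 0.0615 to 0.176). The 20 genes nearest to Ehmt2 had a median of −0.47 at day 4 with 16 lower, and those nearest to Setdb1 −0.07 with 11 lower; the part of neighbouring genes was not tested.

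Suv39h2 was 50.7 and 59.7 with DMSO and 32.8 and 40.1 with dTAG13 at day 2 (−0.59 ± 0.16, adjusted p 0.00781, limma), where the groups did not overlap. At day 4 they did, with 54.3 and 38.8 against 40.9 and 31.1 (−0.36, adjusted p 0.0853). Without dTAG13 replicate 1 or DMSO replicate 2 the day 2 call was lost (−0.45 and −0.47). It was also lost without the filter on low values (adjusted p 0.0662, limma) and without the variance trend (0.0665). The later difference was called without dTAG13 replicate 1 or DMSO replicate 2 of day 4 (−0.55 and −0.59). Without DMSO replicate 1 of day 4 it was −0.118. Ehmt1 was 104 and 108 with dTAG13 at day 2 and 92.8 and 95.8 at day 4, below all DMSO libraries of its day. It was not called (−0.19 and −0.26, adjusted p 0.238 and 0.079, limma), except at day 4 without DMSO replicate 1 (−0.45). Without DMSO replicate 2 its day 4 log2 difference was −0.079.

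Suv39h1 alone rose. It was 34.7 and 33.2 with DMSO and 48.5 and 47.2 with dTAG13 at day 4, clearly apart (0.48 ± 0.16, adjusted p 0.0164, limma), and 32.8 and 44.4 against 39.6 and 45.2 at day 2, which overlapped (0.15, adjusted p 0.51). The day 4 call was lost without dTAG13 replicate 1, dTAG13 replicate 2 or DMSO replicate 2 (0.47, 0.51 and 0.45). It was also lost without the filter on low values (adjusted p 0.0738, limma) and without the variance trend (0.071). Suv39h1 is X-linked, and Xist, the RNA of the inactive X, was 129 and 138 in EpiLCs, 5.41 and 5.02 with DMSO and 250 and 253 with dTAG13 at day 2, and 1.72 and 2.99 against 94.2 and 115 at day 4. The 567 tested X genes had medians of −0.22 at day 2 and −0.17 at day 4, against −0.08 and −0.13 for autosomes, and the 20 nearest to Suv39h1 had −0.67 and −0.50. The part of Xist and of the X in the Suv39h1 value was not tested.

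Of the 46 other pathway genes tested, 5 rose and 14 fell at day 2 and 8 rose and 16 fell at day 4, with medians of −0.08 and −0.09 against −0.09 and −0.13 for all genes. Of 7 PRC2 accessory genes 3 fell at day 2, and 4 fell and 1 rose at day 4. Epop fell at both days (−1.12, adjusted p 8.87e-08, and −1.27, adjusted p 6.31e-09, limma), as did Phf19 (−1.01, adjusted p 0.00786, and −1.35, adjusted p 0.000535). Of the 19 PRC1 genes 4 rose and 4 fell at each day. Pcgf3, of a variant PRC1, rose at both (1.02, adjusted p 8.57e-08, and 1.18, adjusted p 4.22e-09). Pcgf5, of the same variant family, also rose at both (0.81, adjusted p 0.000228, and 1.44, adjusted p 8.22e-08), as did Phc2 (1.17, adjusted p 5.61e-05, and 0.92, adjusted p 0.000468). Cbx2, which reads methylated H3K27, fell at both (−1.0, adjusted p 8.54e-06, and −1.47, adjusted p 2.14e-08). Of the 10 H3K9 partners and readers 5 fell at each day and 2 rose at day 4, and Uhrf1 fell at both (−0.89, adjusted p 1.06e-06, and −1.36, adjusted p 9.27e-10). Cell identity lists differed too. Germ cell genes summed to 219 to 226 with dTAG13 against 254 to 269 at day 2. At day 4 their sums were 264 to 272 against 295 to 327. Of these 8 genes, 4 fell and 1 rose at each day, with medians of −0.67 and −0.88. Mesoderm and endoderm genes summed to 36.7 to 45.6 against 13.6 to 16.8 at day 2. At day 4 it was 42.4 to 45.1 against at most 21.3. Of the 9 mesoderm and endoderm genes, Foxa2 was at 0 in the day 2 DMSO group and T in the day 4 dTAG13 group. Their part in the member values was not tested.

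Fitted over all stages, Jarid2 was the 1 member of 10 that changed in Tex10 clones against the empty-vector line, where 8.76% of all genes did (4.54% higher, 4.22% lower), and it fell. In EpiLCs it was 631 with the vector and 505 and 519 in the clones, and at day 2 834 against 664 and 667. At day 4 it was 745 against 730 and 713, and at day 6 806 against 808 and 762. Both clones were thus below the vector in the first 2 stages by 0.28 to 0.33 on the log2 scale and near it in the others (lower in 7 of 8 libraries). The authors' deposited log2 fold changes of Jarid2 were −0.30 in EpiLCs, −0.32 at day 2, −0.05 at day 4 and −0.04 at day 6, each against 1 vector library. The fitted difference over stages was −0.18 ± 0.05 (adjusted p 0.0296, limma), in a fit that counted the stages of a line as separate libraries. It was not called without the filter on low values (adjusted p 0.118, limma) or without the variance trend (0.204). Without clone 1 or clone 2 it was not called (adjusted p 0.198 and 0.262), and a single vector line gives no measure of how far control lines differ.

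Other members were within 0.20 of the vector line in the fit over stages, in which differences of opposite sign at single stages offset each other. Ezh1 was higher in both clones in EpiLCs (0.35 and 0.10) and lower in both at day 6 (−0.40 and −0.28), and these single-stage differences were not tested. Suv39h1 was lower in 7 of 8 clone libraries (−0.20 ± 0.08, adjusted p 0.127, limma) and Suv39h2 higher in 6 of 8 (0.18 ± 0.08, adjusted p 0.191), the latter with 68.4 and 54.9 against 43.4 at day 4. Ezh2, which differed most under dTAG13, was higher in 4 and lower in 4 of the 8 clone libraries (−0.05 ± 0.07, adjusted p 0.773). Of the 46 other pathway genes, the PRC2 accessory gene Mtf2 rose (0.19, adjusted p 0.0254) and 3 fell, with the PRC1 gene Phc3 at −0.35 (adjusted p 0.00252) and the demethylase gene family member Jmjd1c at −0.20 (adjusted p 0.0136). The proliferation sums of clones and vector were 3620 to 3700 and 3570 in EpiLCs and 3230 to 3330 and 3320 at day 6. At day 2 formative epiblast genes summed to 314 to 329 in the clones and 421 with the vector, and germ cell genes to 377 to 384 and 319. At day 4 germ cell genes summed to 275 to 286 and 347, and mesoderm and endoderm genes to 32.7 to 38.8 and 58.5. The part of these lists in the Jarid2 value was not tested.

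In cKO testis, 5 of 10 genes changed, where 29.1% of 20658 tested genes did (16.1% higher, 13.1% lower): Ehmt1, Suv39h1, Ezh1 and Setdb1 rose and Suv39h2 fell. Ehmt1 had the largest difference, from a level that was the lowest of the 10 in wildtype. The 5 are also the members with an FDR under 0.05 in the authors' deposited table, in the same directions.

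**Figure D5:**
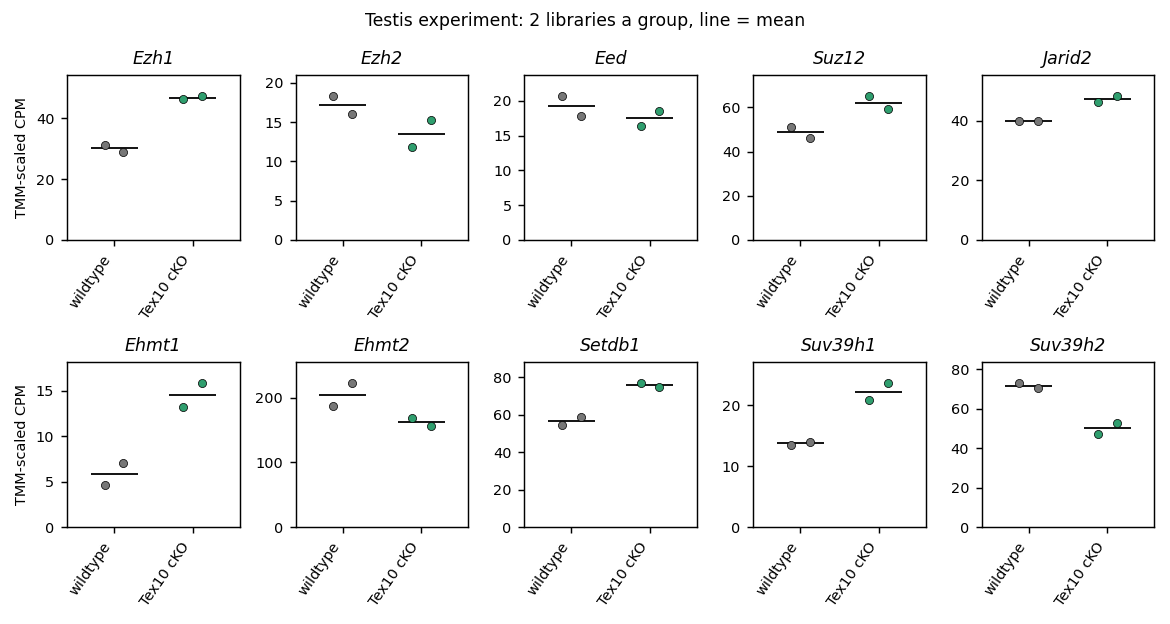
Level of each gene (vertical axis, TMM-scaled CPM from 0) in 2 wildtype and 2 cKO testes; points are libraries and lines are means. Ehmt1, Suv39h1, Ezh1 and Setdb1 are higher and Suv39h2 is lower in both cKO libraries than in both wildtype libraries.

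Ezh1 was 31.3 and 28.9 in wildtype and 46.2 and 47.3 in cKO, well apart (0.62 ± 0.15, adjusted p 0.00738, limma). Ezh2 was 18.3 and 16.0 against 11.8 and 15.2, lower in both cKO libraries but not called (−0.33 ± 0.22, adjusted p 0.276). The ratio of Ezh2 to Ezh1 was 0.554 to 0.585 in wildtype and 0.256 to 0.323 in cKO. Suz12 was 51.2 and 46.3 against 65.1 and 59.1 (0.34, adjusted p 0.0793) and Jarid2 39.9 in both wildtype libraries against 46.2 and 48.2 (0.24, adjusted p 0.229), each above wildtype without passing. Eed overlapped, with 20.7 and 17.9 against 16.4 and 18.6 (−0.13, adjusted p 0.645).

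Ehmt1 was 4.62 and 7.06 in wildtype and 13.2 and 15.8 in cKO, apart in all libraries (1.20 ± 0.27, adjusted p 0.00473, limma). Its partner Ehmt2, the member with the highest level per kb in testis, was 187 and 222 against 168 and 157 (−0.33 ± 0.12, adjusted p 0.0618), called without wildtype replicate 1 (−0.45, adjusted p 0.0104). Setdb1 was 54.4 and 58.9 against 76.6 and 74.8 (0.41 ± 0.13, adjusted p 0.029). Suv39h2, known for its expression in testis, was 72.9 and 70.5 against 47.1 and 53.0 (−0.51 ± 0.14, adjusted p 0.0119), while Suv39h1 was 13.5 and 14.0 against 20.8 and 23.6 (0.65 ± 0.20, adjusted p 0.0228). The H3K9 pair Suv39h1 and Suv39h2 therefore stood on opposite sides of wildtype.

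Cell type markers moved in the same libraries. Round spermatid genes summed to 1590 to 1920 in wildtype and 1040 to 1060 in cKO (5 of 5 fell), and elongating spermatid genes to 16800 to 19200 against 12400 to 12900 (3 of 4 fell). Sertoli genes summed to 250 to 280 against 656 to 769 (6 of 6 rose), Leydig genes to 241 to 347 against 590 to 971 (5 of 5 rose), macrophage genes to 34.4 to 40.6 against 57.4 to 69.5 (2 of 3 tested rose) and spermatogonial genes to 166 to 187 against 302 to 306 (4 of 7 rose). None of the markers on these 6 lists was at 0. The 719 tested X genes had a median difference of 0.57 against 0.00 for autosomes, and the 20 nearest to Suv39h1 had 1.06. The part of these shifts in the member values was not tested.

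The calls of Ezh1 and Ehmt1 held with any library left out, though Ezh1 was not called without the variance trend (adjusted p 0.0649, limma). In that setting Setdb1 (0.137), Suv39h1 (0.0631) and Suv39h2 (0.0957) were not called either. DESeq2 did not call Setdb1 (adjusted p 0.104) or Suv39h1 (0.0889). Setdb1 was lost without cKO replicate 1, cKO replicate 2 or wildtype replicate 1 (adjusted p 0.155, 0.098 and 0.0898, limma), Suv39h1 without either cKO library (0.0587 and 0.15) and Suv39h2 without cKO replicate 1 (−0.43, 0.117). Of 45 other pathway genes tested, 12 rose and 3 fell (median 0.20 against 0.01 for all genes). The PRC1 list held 8 of the rises, among them Cbx6 (1.47, adjusted p 0.000117, limma), and 2 of the falls, one of them Kdm2b (−0.57, adjusted p 0.0108). The H3K9 demethylase Kdm4d was the third to fall (−0.59, adjusted p 0.00455).

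Across the 22 culture libraries, with log2 values centred within each table, the closest pair of members was Ezh2 and Setdb1, with a Pearson r of 0.79. That value came from the dTAG13 experiment (0.961 over 10 libraries) more than from the overexpression experiment (0.155 over 12). Ehmt2 and Setdb1 followed with 0.783 (0.888 and 0.493) and Ezh1 and Eed with 0.724 (0.509 and 0.898), and Ezh1 and Ehmt1 were the most opposed (−0.616). The catalytic pair Ezh1 and Ezh2 had −0.154. Libraries of a table share their groups, so these values are descriptions of shared patterns.

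The tested gene most like each member over the same 22 libraries, among 10939 ranked, was Paxip1 for Ezh2 (r = 0.957), Hcn2 for Suz12 (0.946), Sh3pxd2a for Ezh1 (0.925), Usp48 for Eed (0.892) and Prrc2a for Jarid2 (0.863). For the H3K9 genes it was Gnl3 for Ehmt1 (0.908), Gm8990 for Ehmt2 (0.876), Mindy1 for Setdb1 (0.906), Ptpn11 for Suv39h1 (0.796) and Tcea1-ps1 for Suv39h2 (0.908). The likeness of Ezh1 with Sh3pxd2a was 0.42 in the dTAG13 experiment and 0.967 in the overexpression experiment, and for the other 9 pairs it was at least 0.707 in each.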

How the data were processed

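RNA from 26 samples had been extracted with Trizol and made into libraries with a NuGEN Ovation kit (dTAG13, testis) or a Tecan Universal Plus kit (overexpression), per the labels. The submitters' processing notes name Bowtie2 2.3.4.3, SAMtools 1.9, HTSeq 0.11.2, edgeR 3.26.8 and mm10, without their settings. The deposited per-gene values are a signal that the authors scaled by TMM, per the names they were deposited under. In each library they were whole multiples of 1 step (0.0996 to 0.187 units, tolerance 0.01 of a step) for 100% of values, so they were read as TMM-scaled CPM and whole reads were recovered; in day 4 DMSO replicate 2 the step lies so near 0.1 that this check cannot tell whole reads from rounded values. A floor of 3 reads was 0.299 to 0.56 units and covers counting error only. The authors' own log2 fold changes and p-values (as FDR) are also deposited, and their test is not stated.

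Main tests used limma 3.58.1 in R 4.3.3 with a variance trend on log2(value + 1), over genes with a table mean of at least 1 (16605, 15255 and 20658 genes), within each of 12 comparisons with the Benjamini-Hochberg method; all libraries of a table shared 1 estimate of the spread. This scale understates changes of low genes. Overexpression against vector had stage as a covariate and stage steps had line as a block, since libraries of a clone share their line. Samples were grouped by title. In the dTAG13 and testis tables a replicate number is not said to mark a shared culture or litter. The deviations of same-numbered libraries correlated by −0.128 to 0.118 across genes, so they were not treated as paired. Alternatives were a pseudocount of 0.1, no filter, median-ratio scaling, edgeR 4.0.16 and DESeq2 1.42.0 on recovered reads, no variance trend, fitting only the groups compared, with or without the replicate block, and leaving out libraries. The script was tested on simulated data. Members and lists were chosen with earlier results of these data known. The text names all 10 members, Tex10, Xist, in each comparison up to 2 other pathway genes with the largest rise and 2 with the largest fall (called, table mean at least 5), and the gene most like each member. Some results under this rule are not reported here. Symbols of 98% to 99.4% of tested genes matched GENCODE.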

Additional observations from a re-analysis of the deposited data

Results flagged for a closer look

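Suz12 and Jarid2 had differences of opposite sign from EpiLC to day 2 in the 2 culture experiments, with no overlap between the stages in either. Suz12 had a log2 difference of −0.21 in DMSO cells of the dTAG13 experiment, where it was not called, and of 0.40 over the 3 lines of the overexpression experiment (1 empty-vector line and 2 Tex10 clones). Jarid2 had −0.39 and 0.39. The difference between experiments was not tested, because the tables were normalized separately, and EpiLC groups of 2 and 3 libraries are small.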

How the results depend on the processing

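Of 120 member results (10 genes in 12 comparisons), 35 were called and 17 of these kept their call under every alternative; none reversed, and 11 of the 85 others were called under at least 1. Without the filter on low values, members called were 1 for dTAG13 at day 2 (main 4), 3 at day 4 (5), 0 for overexpression (1) and 1 for day 2 to day 4 in the overexpression experiment (3). Without the variance trend they were 0 for EpiLC to day 2 in DMSO cells (2), 1 and 3 for dTAG13, 0 for overexpression, 0 for day 2 to day 4 in the overexpression experiment and 1 for testis (5). Median-ratio scaling, edgeR and DESeq2 each gave 1 for day 2 to day 4 in DMSO cells (0) and 2 for dTAG13 at day 2, and DESeq2 gave 3 for testis. Leaving out 1 library or clone gave 0 to 2 for EpiLC to day 2, 0 to 1 for day 2 to day 4 and 2 to 3 for EpiLC to day 4 in DMSO cells, 1 to 3 and 3 to 7 for dTAG13, 0 to 1 for the interaction, 0 for overexpression, 0 to 3 for day 2 to day 4 in the overexpression experiment and 2 to 5 for testis. The cause of these changes was not tested beyond fewer samples or other genes tested. With the replicate block, dTAG13 at day 2 had 3 (Suz12 lost) and testis 7 (Suz12 and Ehmt2 gained); a crossed block for EpiLC to day 4, chosen after seeing the data, gave 3, as did the block as numbered and no block. Groups held 1 or 2 libraries, which limits every comparison.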
